A study of Mus musculus with 10 samples.

Results

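The genes described are 10 that encode the light response of cone photoreceptors: the opsins Opn1sw and Opn1mw, the transducin subunits Gnat2, Gnb3 and Gngt2, the phosphodiesterase subunits Pde6c and Pde6h, the channel subunits Cnga3 and Cngb3, and the arrestin Arr3. They were taken by gene name from a table of 36115 genes, where each name matched 1 row, and all 10 passed the filter on low counts that left 18965 genes for testing. The libraries are RNA sequencing libraries of mouse retina from untreated C57BL/6-background animals aged 3 months. There were 5 wild-type libraries, W1 to W5, and 5 libraries with the genotype label B6.129S2-Il6tm1Kopf/J, a line that lacks interleukin-6, K1 to K5. By their labels, both groups have the same strain background, age and absence of treatment. The genotype label of K1 to K5 names a separate line. Whether the groups also differ in DNA outside the interleukin-6 gene was not tested, so a group difference cannot be assigned to that gene alone. The numbers only name the libraries within a group. The labels do not say whether each library came from a separate animal, and p-values are about the spread among libraries, part of which may be technical.

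Cones serve daylight and colour vision and are far fewer than rods in the mouse retina. In each cone, light isomerises the chromophore of an opsin, the opsin activates transducin, transducin relieves the inhibition of phosphodiesterase 6, and the fall in cyclic GMP closes a cation channel in the outer segment. Arrestin then binds the phosphorylated opsin and ends its activity. Rods use the same sequence of steps with their own copies of nearly every component, and loss of Pde6c, Gnat2, Cnga3 or Cngb3 in mice or people is a known cause of absent cone vision.

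Total counts ran from 30433373 to 38857374 per library. Il6 counted 0, 0, 1, 1 and 1 reads over W1 to W5 against 3, 3, 5, 7 and 4 over K1 to K5. These counts are near the floor in both groups and do not say whether an intact transcript is made. They neither bear out the label nor contradict it, so K1 to K5 are called the labelled-knockout libraries. Markers of rods, cones, bipolar cells, Muller glia and ganglion cells were present in every library, as the tissue label says. Markers of the pigment epithelium, which lies against the retina, summed over 11 genes, ran from 121 to 533 CPM in wild type and from 255 to 442 CPM in the labelled-knockout libraries. CPM gives a gene's reads scaled by library size and TMM factor. W5 had the lowest sum of these markers and W2 the highest, and these are also the libraries that stand apart below in Pde6c and in Opn1mw. Summed markers of Muller glia were also highest in W2 (7113 CPM, with 5308 to 5906 in the other wild-type libraries), as were those of microglia and monocytes (70.0 CPM), and those of ganglion cells were highest in W5 (1161 CPM). The part of these markers in those values was not tested. In whole retina, fewer cones and less RNA per cone cannot be told apart.

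Sequence upstream of the start was at hand in RefSeq (GRCm38.p6) for 6 of the 10 genes, Opn1sw, Opn1mw, Gnat2, Arr3, Pde6h and Cnga3. The 248 bases that end just before the RefSeq start of both opsins and of the arrestin are shown because these genes follow different patterns across the libraries. Capitals mark TAATCC or TAATCT on either strand, the letters that the photoreceptor homeodomain factor CRX is known to prefer.
Arr3, chrX:100605247-100605494, plus strand: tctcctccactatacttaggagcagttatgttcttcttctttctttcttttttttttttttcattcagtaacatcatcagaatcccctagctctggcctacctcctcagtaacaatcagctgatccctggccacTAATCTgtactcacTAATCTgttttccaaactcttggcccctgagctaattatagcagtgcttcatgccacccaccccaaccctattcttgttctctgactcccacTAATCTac
Opn1sw, chr6:29380516-29380763, minus strand: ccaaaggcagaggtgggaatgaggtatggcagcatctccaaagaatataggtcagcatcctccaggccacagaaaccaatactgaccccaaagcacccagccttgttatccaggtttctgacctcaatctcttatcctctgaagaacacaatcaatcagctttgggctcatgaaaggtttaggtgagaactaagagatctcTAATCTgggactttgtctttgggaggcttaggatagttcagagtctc
Opn1mw, chrX:74127216-74127463, plus strand: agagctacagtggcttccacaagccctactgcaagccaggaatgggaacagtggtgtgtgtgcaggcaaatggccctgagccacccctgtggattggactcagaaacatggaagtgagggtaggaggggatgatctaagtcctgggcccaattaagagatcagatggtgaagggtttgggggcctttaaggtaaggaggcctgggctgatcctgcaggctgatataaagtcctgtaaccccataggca
The Arr3 window holds TAATCT at 3 places, the Opn1sw window at 1, and the Opn1mw window holds neither motif. Of the genes not shown, Gnat2 holds TAATCC at 1 place, and Pde6h and Cnga3 hold neither motif. All 248 bases of the Gnat2 window are annotated as exon in GENCODE M21. Either motif was present for 3 of the 6 cone genes and for 4 of 6 rod counterparts with such sequence. A gene was counted if any of its windows held a motif, while the shares that follow are per window, so the units differ. Among 32851 RefSeq promoter windows of the same length, 12.8% held either motif, 1.38% held it at 2 or more places and 0.189% at 3 or more. A match describes the letters only.

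None of the 10 cone genes was called different between the groups by edgeR's quasi-likelihood test at an adjusted p under 0.05, and 1 of 10, Pde6c, had an unadjusted p under 0.05. Over all tested genes, 385 were called, which is 2.03% (0.859% higher and 1.17% lower in the labelled-knockout libraries), and 13.8% had an unadjusted p under 0.05. DESeq2 and limma-voom also called none of the 10. The log2 fold change was positive in 5 of the 10 genes, with a median of -0.01 over the 10 beside 0.00 over all tested genes, 9562 of which were positive. No cone gene had groups that did not overlap, and 3.48% of all tested genes did. Without W5, the library that stands apart in Pde6c, 1 of the 10 was called, Pde6c, higher, and 1.94% of all tested genes were (0.824% higher), and Pde6c was the only cone gene whose groups did not overlap, beside 4.78% of all tested genes. W5 was singled out by its Pde6c value, so this call and this lack of overlap are descriptions. The level of the 10 genes added together was 1548 to 1897 CPM in wild type and 1624 to 1815 CPM in the labelled-knockout libraries, so the summed level overlapped.

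**Figure D1:**
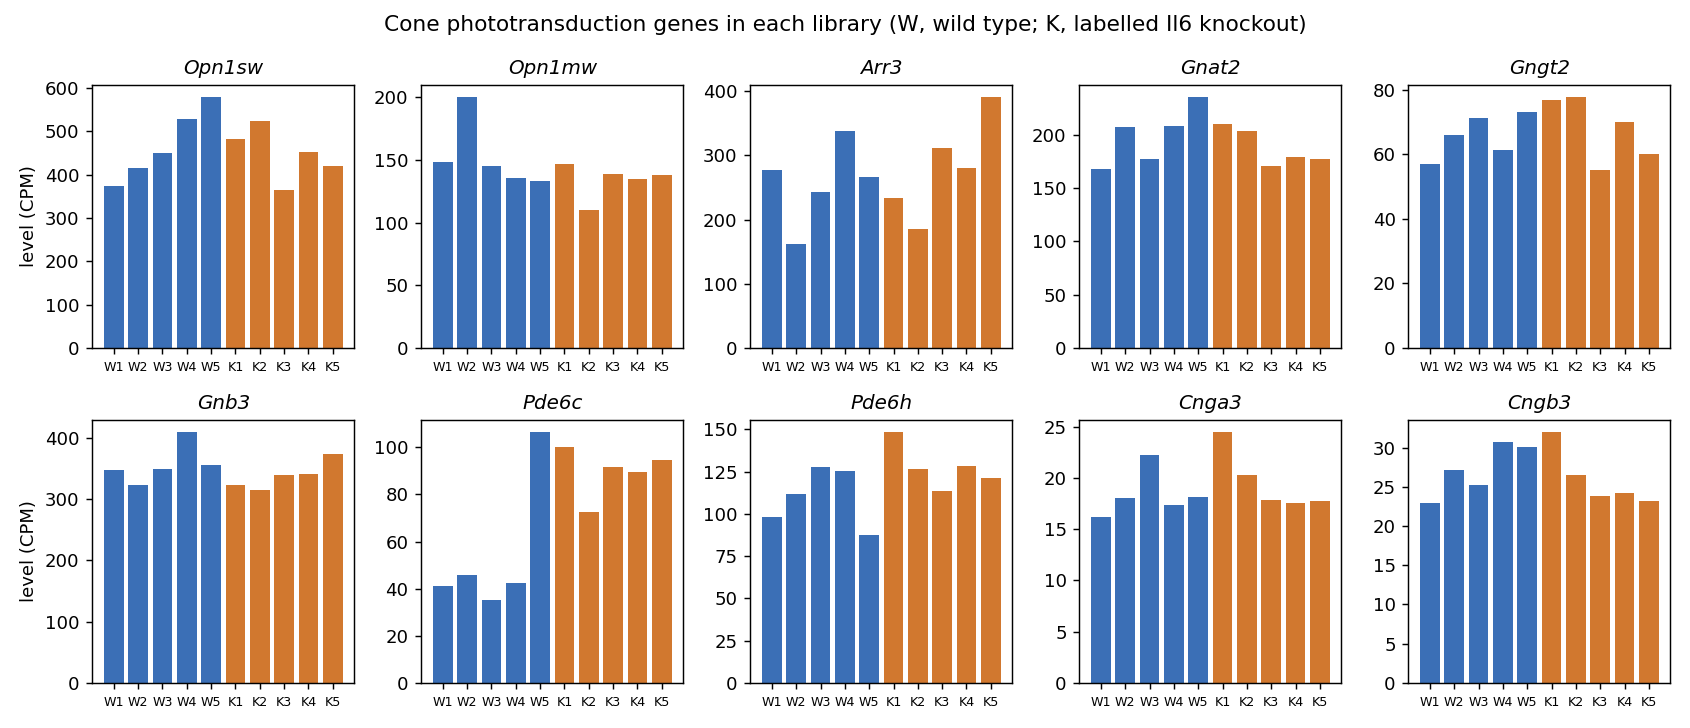
Level of each cone phototransduction gene in CPM (y axis, from 0, own scale per gene) in the 5 wild-type libraries (W1 to W5) and the 5 labelled knockout (K1 to K5), 1 bar per library. Pde6c in W5 stands at 106 CPM beside 35.4 to 45.7 in W1 to W4, Opn1mw is highest in W2 at 199.96 CPM, and Arr3 is lowest in W2 at 163 and highest in K5 at 390.

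Per kb of principal transcript, the levels fell into tiers in wild type. Opn1sw (195 ± 34.6 CPM per kb, SD, n = 5), Gnb3 (193 ± 17.1) and Arr3 (189 ± 46.6) did not differ beyond their spread. Opn1mw followed at 124 ± 22.2 and Gnat2 at 96.9 ± 13.1 CPM per kb, with ranges that met. Gngt2 stood at 41.4 ± 4.19, Pde6c at 20.96 ± 11.4 and Pde6h at 18.5 ± 2.92 CPM per kb, and these last neighbours overlapped. The channel subunits were lowest, Cngb3 at 5.78 ± 0.70 and Cnga3 at 5.18 ± 0.64 CPM per kb, also within each other's spread. The order depends on the transcript used: over all annotated exons Arr3 falls to 109 CPM per kb beside 183 for Opn1sw. Pde6h was divided by a principal transcript of 5.94 kb and Pde6c by 2.59 kb. Before that division Pde6h stood at 110 CPM and Pde6c at 54.2 CPM in wild type.

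The cone opsins absorb the light. Opn1sw, the short-wavelength opsin (chromosome 6, 29376671 to 29388468, GRCm38), was at 374, 414, 450, 529 and 578 CPM across W1 to W5 and at 481, 523, 363, 452 and 419 CPM across K1 to K5. The wild-type range covers nearly all of the other, and the log2 fold change (labelled knockout over wild type) was -0.07 ± 0.12 (SE, edgeR adjusted p = 0.864). Opn1mw, the middle-wavelength opsin (chromosome X, 74127464 to 74150760), was at 148, 199.96, 145, 136 and 133 CPM across W1 to W5 and at 147, 110, 139, 135 and 138 CPM across K1 to K5. W2 is high and K2 is low, while the other 8 libraries lie between 133 and 148 CPM, and the log2 fold change was -0.19 ± 0.11 (edgeR adjusted p = 0.486). Opn1sw shares 397 exon bases with Calu on the opposite strand, a gene at 152 to 172 CPM in these libraries, so if strand was not used in counting some reads could be of either gene.

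Mouse cones carry more of the middle-wavelength opsin in the dorsal retina and more of the short-wavelength opsin in the ventral retina, so the ratio of the opsins follows position in the eye. The ratio of Opn1mw to Opn1sw counts was 0.396, 0.483, 0.322, 0.257 and 0.230 across W1 to W5 and 0.306, 0.211, 0.383, 0.298 and 0.330 across K1 to K5. W2 has the highest ratio and K2 the lowest, and the groups overlap throughout. The log2 ratio was -1.62 ± 0.44 in wild type and -1.74 ± 0.32 in the labelled-knockout libraries (SD, n = 5), a difference of -0.12 (exact two-sided permutation test, p = 0.643, 0.643 after adjustment over 4 ratios, smallest possible 0.00794). Without W2 the difference was 0.02 and without K2 it was 0.01, so its sign rests on single libraries.

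Several genes of dorsal and ventral retina, chosen after the opsin values had been seen, were highest or lowest in those same libraries. The dorsal transcription factor Tbx5 was at 6.56, 11.2, 4.23, 5.44 and 3.29 CPM across W1 to W5 and at 3.95, 2.54, 5.37, 2.88 and 3.93 CPM across K1 to K5, with its highest value in W2 and its lowest in K2. Nr2f2, another dorsal transcription factor, had 41.2 CPM in W2, 24.6 in K2 and 25.4 to 33.2 in the other 8. Vax2, a ventral transcription factor, ran the other way, with 21.9 CPM in W2, 54.5 in K2 and 30.8 to 46.0 in the others. Of the other dorsal genes looked at, Tbx3, Efnb1, Efnb2 and Aldh1a1 were also highest in W2, while Tbx2 was highest in K2, the library with the lowest opsin ratio. The ventral receptors Ephb2 and Ephb3 were neither lowest in W2 nor highest in K2. None of these 10 genes was called between the groups, and their part in the opsin values was not tested.

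**Figure D2:**
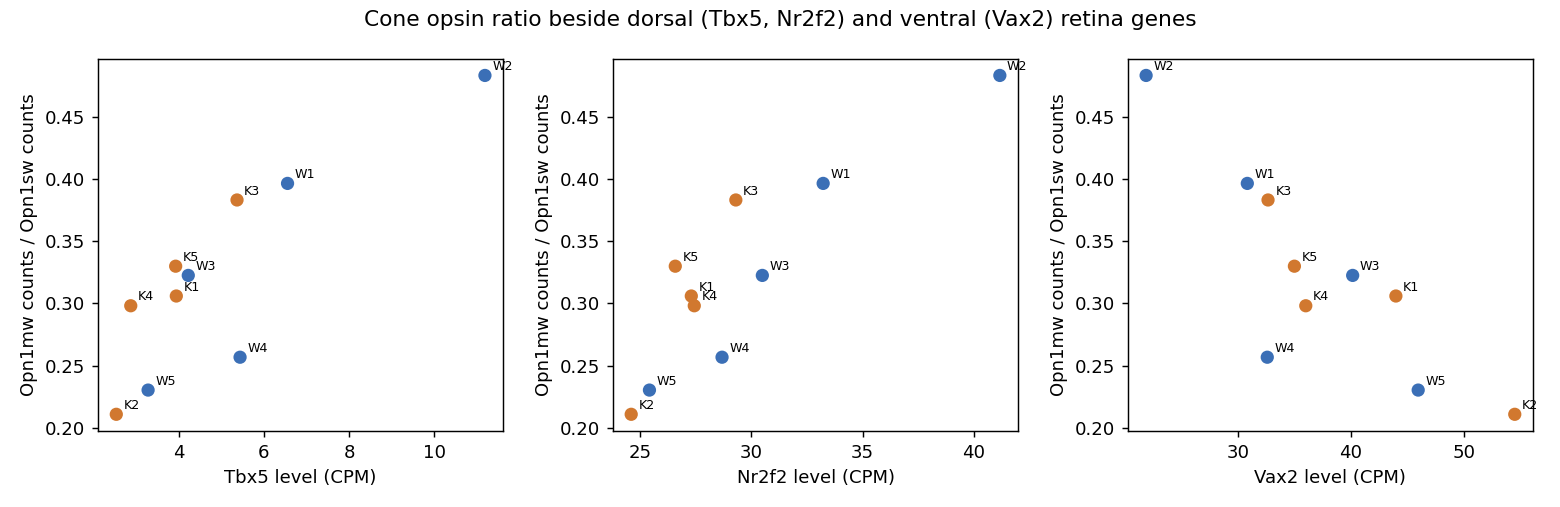
Ratio of Opn1mw to Opn1sw counts (y axis) against the level in CPM (x axes) of the dorsal genes Tbx5 and Nr2f2 and the ventral gene Vax2, 1 point per library, wild type in blue and labelled knockout in orange. W2, at a ratio of 0.483, has the most Tbx5 and Nr2f2 and the least Vax2, and K2, at 0.211, has the least Tbx5 and Nr2f2 and the most Vax2.

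Cone transducin carries the signal from opsin to phosphodiesterase. Its catalytic subunit Gnat2 (chromosome 3, 108092789 to 108101432) was at 168, 207, 177, 208 and 235 CPM across W1 to W5 and at 210, 204, 170.5, 179 and 177 CPM across K1 to K5. W5 is highest, the groups overlap, and the log2 fold change was -0.08 ± 0.09 (SE, edgeR adjusted p = 0.775). The beta subunit Gnb3 (chromosome 6, 124834240 to 124840275), which bipolar cells also use, was at 347, 323, 350, 409 and 355 CPM across W1 to W5 and at 323, 315, 339, 340 and 374 CPM across K1 to K5. Its range from lowest to highest library was the narrowest of the 10 genes, 1.27-fold in wild type and 1.19-fold in the labelled-knockout libraries, with a log2 fold change of -0.08 ± 0.08 (edgeR adjusted p = 0.728). The gamma subunit Gngt2 (chromosome 11, 95837216 to 95845734) was at 57.0, 66.0, 71.2, 61.5 and 72.9 CPM across W1 to W5 and at 76.8, 77.6, 55.0, 70.0 and 60.2 CPM across K1 to K5. K1 and K2 lie above every wild-type library and K3 below them all, and the log2 fold change was 0.05 ± 0.10 (edgeR adjusted p = 0.886). Gngt2 shares 234 exon bases with Abi3 on the opposite strand, which was at no more than 1.65 CPM in any library. The log2 ratio of Gnat2 to Gngt2 was 1.59 ± 0.17 in wild type and 1.48 ± 0.11 in the labelled-knockout libraries (SD, n = 5), a difference of -0.12 (exact permutation p = 0.254, 0.339 over the 4 ratios). Without W3 that difference was -0.18 (exact permutation p = 0.0397). W3 was singled out after each library had been left out in turn, so that p is a description.

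Phosphodiesterase 6 breaks down cyclic GMP, and Pde6c is its catalytic subunit in cones (chromosome 19, 38132781 to 38183958). Pde6c was at 41.2, 45.7, 35.4, 42.3 and 106 CPM across W1 to W5 and at 100.2, 72.4, 91.7, 89.4 and 94.6 CPM across K1 to K5. W1 to W4 lie below every labelled-knockout library, and W5 lies above them all. The mean was 54.2 ± 29.4 CPM in wild type and 89.7 ± 10.5 in the labelled-knockout libraries (SD, n = 5). The log2 fold change was 0.73 ± 0.23 (SE, edgeR adjusted p = 0.1502), and the authors' deposited table gives 0.36 with an adjusted p of 0.245. W5 had 2.59 times the mean of W1 to W4, which was 41.1 ± 4.29 CPM (SD, n = 4), and the labelled knockout mean was 2.18 times it. Without W5 the log2 fold change was 1.12 ± 0.10 (edgeR adjusted p = 8.38e-06, the lowest over the alternatives, whose highest was 0.289). Since W5 was singled out by its own Pde6c value, that p is a description and no test of the groups. With all 10 libraries and no filter on low counts, Pde6c was also called, at an edgeR adjusted p of 0.0124, so the call depends on that library and on the filter.

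The highest wild-type library was 3.01 times the lowest in Pde6c, and 0.706% of the 10336 genes at 10 CPM or more had a wild-type range as wide. Pde6c had 1295 to 3679 reads per library. Its longest stretch identical to a rod transcript was 24 bases, to Pde6a, beside reads of 100 bases.

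The inhibitory gamma subunit Pde6h (chromosome 6, 136923832 to 136968865) holds the cone enzyme inactive in the dark. Pde6h was at 97.9, 112, 128, 125 and 87.4 CPM across W1 to W5 and at 148, 126, 113, 128 and 121 CPM across K1 to K5. W5, the highest library in Pde6c, is the lowest in Pde6h. The groups overlap, and the log2 fold change was 0.21 ± 0.10 (SE, edgeR adjusted p = 0.379). Pde6h shares 136 exon bases with Arhgdib on the opposite strand, which was at 1.69 to 4.72 CPM in wild type and 4.57 to 6.93 CPM in the labelled-knockout libraries.

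The ratio of Pde6c to Pde6h counts was 0.421, 0.409, 0.277, 0.338 and 1.22 across W1 to W5 and 0.676, 0.573, 0.810, 0.696 and 0.780 across K1 to K5. W5 alone had more catalytic than inhibitory subunit reads, and W1 to W4 lie below every labelled-knockout library. The log2 ratio was -1.13 ± 0.83 in wild type and -0.51 ± 0.20 in the labelled-knockout libraries (SD, n = 5), a difference of 0.62 (exact permutation p = 0.143, 0.339 over the 4 ratios). Without W5 the difference was 0.98 with an exact permutation p of 0.00794, the smallest that 126 splits of 4 against 5 can give. W5 was singled out by its own value and W1 to W4 lie below the other group, so that p was fixed beforehand and tests nothing.

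The channel of the cone outer segment is built from Cnga3, which can form a channel alone, and Cngb3, which modulates it. Cnga3 (chromosome 1, 37214434 to 37263384) was at 16.2, 18.0, 22.3, 17.4 and 18.1 CPM across W1 to W5 and at 24.5, 20.3, 17.9, 17.5 and 17.7 CPM across K1 to K5. W3 and K1 are high, the groups overlap, and the log2 fold change was 0.09 ± 0.11 (SE, edgeR adjusted p = 0.785). Cngb3 (chromosome 4, 19280850 to 19510623) was at 22.9, 27.2, 25.2, 30.7 and 30.1 CPM across W1 to W5 and at 32.0, 26.5, 23.8, 24.3 and 23.2 CPM across K1 to K5. K1 is again the highest library, and the log2 fold change was -0.07 ± 0.10 (edgeR adjusted p = 0.829). The ratio of Cnga3 to Cngb3 counts was 0.707, 0.664, 0.884, 0.566 and 0.602 in W1 to W5, and it stayed between 0.723 and 0.766 across K1 to K5. W3 lies above and the other 4 wild-type libraries below every labelled-knockout library. The log2 ratio was -0.56 ± 0.25 in wild type and -0.41 ± 0.04 in the labelled-knockout libraries, a difference of 0.16 (exact permutation p = 0.206, 0.339 over the 4 ratios), and without W3 it was 0.25 with the smallest possible p of 0.00794. W3 was singled out by its own ratio and the other 4 lie below, so that p was fixed beforehand and tests nothing.

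Cone arrestin, Arr3 (chromosome X, 100605497 to 100618493), ends the activity of the opsin. Arr3 was at 276, 163, 243, 338 and 266 CPM across W1 to W5 and at 233, 185, 311, 280 and 390 CPM across K1 to K5. W2 and K2 are the lowest libraries of their groups and the groups overlap. The highest library was 2.08 times the lowest in wild type and 2.11 times in the labelled-knockout libraries, and 2.59% and 0.668% of genes at 10 CPM or more had ranges as wide. The log2 fold change was 0.12 ± 0.19 (SE, edgeR adjusted p = 0.836), and without W2 it was -0.01 and without K5 it was -0.03.

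The share of reads in genes annotated as long intergenic non-coding RNA was lowest in W2, at 0.590%, and highest in K5, at 0.940%, the same libraries that are lowest and highest in Arr3. Malat1, a nuclear long non-coding RNA, was lowest in W2, at 1248 CPM, and highest in K5, at 2370 CPM. Its reads may be part of this share, so it is not a separate observation. The part of this share in the level of Arr3 was not tested. Gnb3 also ran low in W2 (323 CPM) and, among wild type, highest in W4 (409 CPM), where the share was 0.931%, and it was highest of K1 to K5 in K5 (374 CPM). Opn1sw was highest in W5 and Cngb3 in K1.

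**Figure D3:**
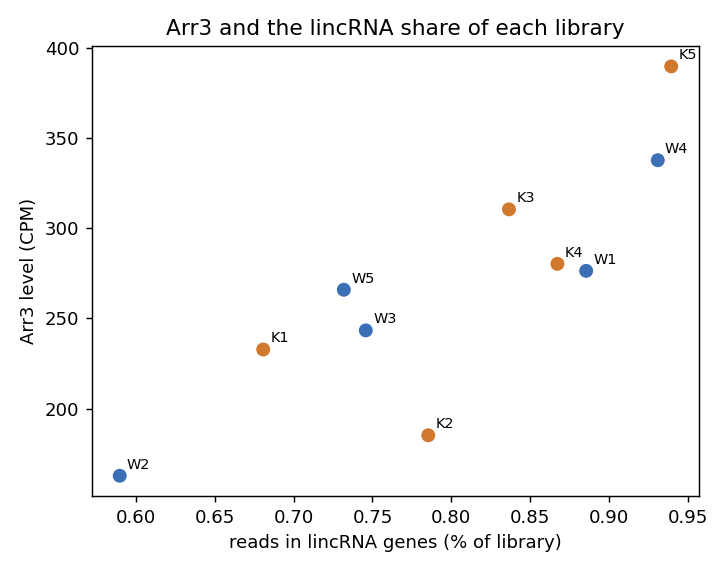
Level of Arr3 in CPM (y axis) against the percentage of each library's reads in long intergenic non-coding RNA genes (x axis), 1 point per library, wild type in blue and labelled knockout in orange. W2 is lowest on both axes (163 CPM, 0.590%) and K5 highest on both (390 CPM, 0.940%), while K2 lies low in Arr3 (185 CPM) at a middle share.

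Several cone genes had like patterns from library to library. Likeness was measured as the root mean square distance between log2 CPM values centred on their mean over the 10 libraries, and each gene was ranked among the 18964 others. Gnat2 was the second nearest gene to Opn1sw (distance 0.116, with an SD of Opn1sw itself of 0.208), Cngb3 the 12th and Gngt2 the 18th. Gnat2 and Cngb3 were at a distance of 0.0783, ranks 3 and 2 of each other's lists. Opn1mw, Arr3, Gngt2, Gnb3, Pde6c, Pde6h and Cnga3 had no cone gene among their nearest 100. The nearest genes to Opn1mw include Nr2f2 at rank 3 and Efnb1 at rank 5, both dorsal genes of the list above, and those to Arr3 were Arrdc1, Tnfsf13, Pitpnm2os2, Ddb2 and BC030343.

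The 5 genes nearest to Pde6c were Fgfbp3, Gstm6, 3425401B19Rik, D2hgdh and Bub1b, at distances of 0.251 to 0.307 beside an SD of 0.592 for Pde6c itself. They were chosen for this likeness over the same 10 libraries, so a high W5 and a group difference of the same sign follow from the choice, and their values are a description. The D-2-hydroxyglutarate dehydrogenase gene D2hgdh (chromosome 1) was at 9.77 CPM in W5, at 6.15 to 6.63 in W1 to W4 and at 11.5 to 14.7 across K1 to K5. The mitotic checkpoint kinase gene Bub1b (chromosome 2) was at 22.5 CPM in W5, at 9.71 to 15.6 in W1 to W4 and at 27.1 to 33.3 across K1 to K5. Their log2 fold changes were 0.90 ± 0.14 and 1.01 ± 0.16 (SE). In both genes W5 lies between W1 to W4 and the labelled-knockout libraries, whereas in Pde6c it lies above all of them. That is not particular to Pde6c. 3425401B19Rik was also highest in W5, at 1.81 CPM, beside 0.574 to 1.05 in W1 to W4 and 0.931 to 1.70 across K1 to K5. Gstm6 was at 1.57 CPM in W5, at 0.637 to 1.20 in W1 to W4 and at 1.77 to 2.05 across K1 to K5. Both are low-count genes.

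Fgfbp3, which encodes a binding protein of fibroblast growth factors, lies 1.22 Mb from Pde6c on chromosome 19. It was at 10.4, 15.0, 10.3, 11.5 and 19.5 CPM across W1 to W5 and at 19.8, 18.4, 19.4, 24.1 and 26.2 CPM across K1 to K5, so W5 falls inside the range of the labelled-knockout libraries. The log2 fold change was 0.70 ± 0.17 (SE), and 0.87 ± 0.14 without W5. Fra10ac1, the called gene nearest to Pde6c, 0.056 Mb away, was at 15.4, 16.6, 15.5, 17.4 and 21.5 CPM across W1 to W5 and at 23.7, 20.01, 23.1, 24.8 and 26.4 CPM across K1 to K5. W5 again falls inside the labelled knockout range, and the log2 fold change was 0.45 ± 0.10 (SE, edgeR adjusted p = 0.0358).

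This neighbourhood was looked at because Fgfbp3 and Pde6c share a chromosome. Within 10 Mb of Pde6c on each side, 195 genes were tested and 8 were called, all higher. That is 4.10%, beside 2.03% called in either direction and 0.859% called higher over all tested genes. On the whole of chromosome 19, 14 of 536 tested genes were called. Without W5, 12 in the window were called, 10 of them higher, which is 6.15% beside 1.94% of all tested genes. In 7 of those 12, W5 was nearer to the labelled knockout mean than to the mean of W1 to W4, a share of 58.3%. These 7 were Fgfbp3, Fra10ac1, R3hcc1l, Pyroxd2, Pdzd7, Btrc and Cfap58. Fgfbp3 had been found by its likeness to Pde6c with W5 included. The share was 33.2% of the 334 genes called without W5 on other chromosomes. Over the whole of chromosome 19, Pde6c left out, it was 13 of 22 genes, 59.1%, so it is not particular to this window. Btrc, which encodes a subunit of a ubiquitin ligase, was at 95.0, 97.8, 90.5, 96.3 and 127 CPM across W1 to W5 and at 126, 117, 141, 119 and 133 CPM across K1 to K5. The remaining 5 of the 12, among them the interferon-induced Ifit1 and Ifit3, had W5 nearer to W1 to W4. These shares are given with no test, since the window was chosen after the values were seen and W5 took no part in the calls.

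**Figure D4:**
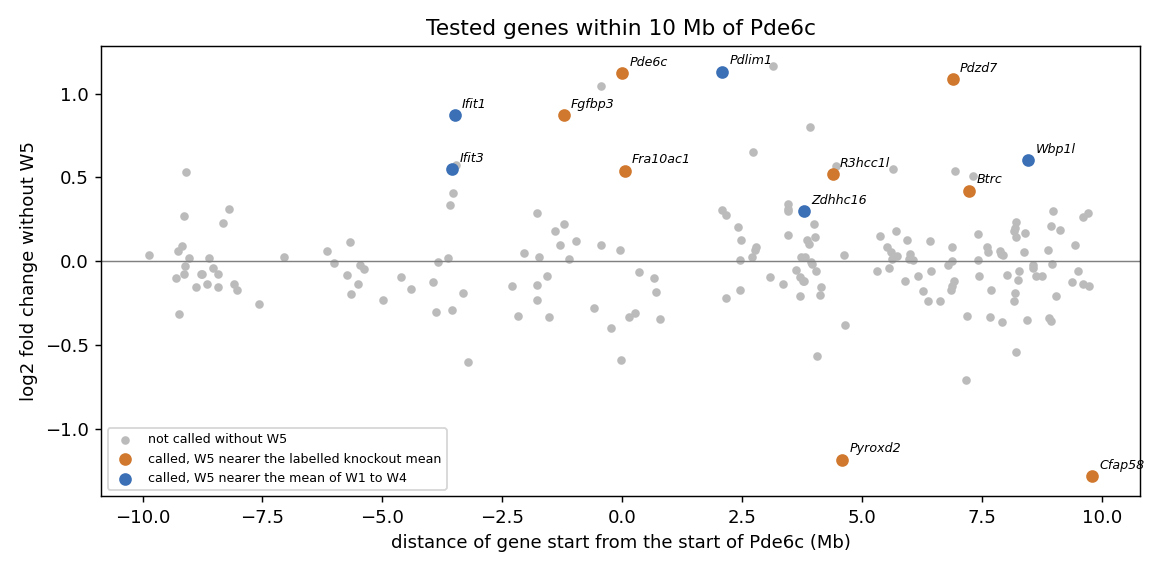
Log2 fold change without W5 (y axis) of the tested genes within 10 Mb of Pde6c against the distance of each gene's start from that of Pde6c in Mb (x axis). Grey points were not called without W5, orange points were called and have W5 nearer to the labelled knockout mean, blue points were called and have W5 nearer to W1 to W4; beside Pde6c, 7 called genes are orange and 5 blue.

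The rod counterparts were set beside the cone genes. In wild type, the level per kb of the cone gene was 0.934% of that of its rod counterpart for Pde6h over Pde6g and 10.3% for Gnb3 over Gnb1, with the other 6 cone genes that have a counterpart here between. The lowest share rests on the lengths used, 5.94 kb for Pde6h and 0.9 kb for Pde6g. Without division by length these genes stood at 110 and 1809 CPM in wild type. Among the rod genes Sag, Gnat1, Gngt1, Gnb1, Pde6a, Pde6b, Pde6g, Cnga1 and Cngb1, 1 of 9 was called by edgeR, which is Sag. Over all tested genes 2.03% were called. The median log2 fold change of the 9 was 0.00. Sag, the rod arrestin and counterpart of Arr3, was at 7163 to 8508 CPM in wild type and at 4108 to 5793 CPM in the labelled-knockout libraries, with no overlap. Its log2 fold change was -0.67 ± 0.11 (SE, edgeR adjusted p = 0.00267), and Arr3 did not follow it. The level of Arr3 per kb was 4.24% ± 1.07 of that of Sag in wild type and 7.61% ± 2.98 in the labelled-knockout libraries (SD, n = 5), with Sag the gene that was called.

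The rod phosphodiesterase subunits were set beside Pde6c. The catalytic subunits Pde6a and Pde6b ran from 2248 to 3082 and from 2137 to 2478 CPM in wild type and from 2018 to 3297 and from 2014 to 2574 CPM in the labelled-knockout libraries. The inhibitory subunit Pde6g ran from 1587 to 2014 CPM and from 1563 to 2063 CPM. None of these was called, with log2 fold changes of -0.02 ± 0.13, -0.05 ± 0.09 and 0.00 ± 0.10 (SE, edgeR adjusted p of 0.976, 0.866 and 0.990), and the groups overlap in each. W5 was the highest wild-type library and K1 the highest labelled-knockout library in all 3, as in Pde6c. In Pde6a, W5 stood at 3082 CPM and W1 to W4 at 2248 to 2716. The level of Pde6c per kb as a share of that of Pde6a was 2.31% to 6.128% in wild type and 5.39% to 7.21% in the labelled-knockout libraries, with W5 the highest of wild type.

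The other rod genes overlapped between groups. The rod transducin subunits were at 10797 to 14610 CPM in wild type and 10997 to 15360 CPM in the labelled-knockout libraries for Gnat1, at 5131 to 7030 and 4508 to 6586 CPM for Gnb1, and at 883 to 1192 and 923 to 1233 CPM for Gngt1. The rod channel subunits were at 920 to 1201 and 986 to 1221 CPM for Cnga1 and at 956 to 1222 and 934 to 1382 CPM for Cngb1. Their log2 fold changes lay between -0.19 for Gnb1 and 0.09 for Cngb1.

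**Figure D5:**
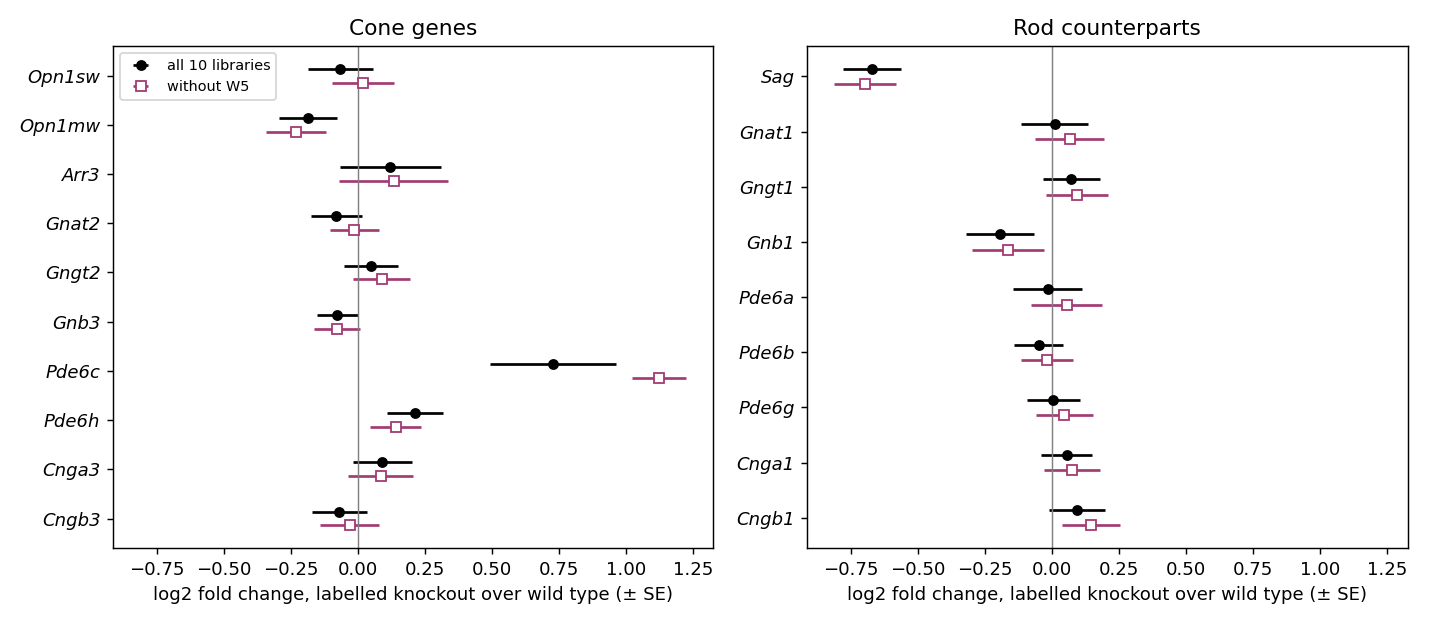
Log2 fold change, labelled knockout over wild type, with its SE (x axis) for the 10 cone genes (left) and 9 rod counterparts (right), from all 10 libraries (filled circles) and without W5 (open squares). Pde6c moves from 0.73 to 1.12 without W5, Sag is the only 1 of these rod genes called (-0.67), and the others lie within about 0.3 of 0.

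Other genes of photoreceptors were not called either. Of 15 tested genes that rods and cones share in the pathway (such as the guanylate cyclases Gucy2e and Gucy2f and the cyclase activators Guca1a and Guca1b) none was called by edgeR and 4 had an unadjusted p under 0.05. In 1 of the 15, Guca1b, the groups did not overlap, beside 3.48% of all tested genes. It was at 1012 to 1239 CPM in wild type and 1274 to 1698 CPM in the labelled-knockout libraries (edgeR adjusted p = 0.0722). Of 9 other genes that cones express, which need not be confined to cones (Thrb among them), none was called and 1 had an unadjusted p under 0.05. Of 10 photoreceptor fate factors (such as Crx, Nrl and Nr2e3) none was called and 2 had an unadjusted p under 0.05. Over all tested genes, 2.03% were called and 13.8% had an unadjusted p under 0.05. The median log2 fold changes of the 3 lists were 0.03, -0.03 and 0.04, and without W5 none of them had a call. Thrb, the thyroid hormone receptor that governs the middle-wavelength opsin, was at 83.3, 93.4, 86.9, 84.5 and 99.7 CPM across W1 to W5 and at 90.1, 77.7, 82.3, 86.0 and 73.1 CPM across K1 to K5, with overlap.

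Markers of other retinal cells gave 1 call. None was called among 12 bipolar, 10 Muller glia, 11 pigment epithelium and 9 ganglion cell markers. Among 12 markers of microglia and monocytes, the complement gene C1qc was higher, at 2.72 ± 0.68 CPM in wild type and 4.62 ± 0.43 in the labelled-knockout libraries (SD, n = 5), with a log2 fold change of 0.77 ± 0.18 (SE, edgeR adjusted p = 0.0342). Without W5 its edgeR adjusted p was 0.0516. The log2 fold change was positive in 10 of these 12 genes, with a median of 0.30 (0.31 without W5), and 3 had an unadjusted p under 0.05. Over all tested genes, 2.03% were called and 13.8% had an unadjusted p under 0.05. The summed level of the 12 overlapped, at 42.1 to 70.0 CPM in wild type and 57.4 to 61.5 CPM in the labelled-knockout libraries.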

How the data were processed

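Retinal RNA of 10 libraries was sequenced as 100-base read pairs. The authors deposited whole-number counts of reads per gene, not normalized. The submitters' processing notes name STAR 2.5.3a, featureCounts 1.15.2, DESeq2 1.14, bcl2fastq and FastQC, with the build GRCm38.p5. How strand and multiply matching reads were handled was not given in the sources used here. Beside the counts stand, per the file headers, the authors' DESeq2 log2 fold changes, p-values and adjusted p-values. The deposited signal, a mean of normalized counts, was not used.

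Groups follow the genotype label. Genes were filtered with filterByExpr (minimum count 10, total 15), scaled with TMM factors of 0.954 to 1.04 and tested with edgeR 4.0.16 (glmQLFit, glmQLFTest, R 4.3.3), with genotype as the only term, Benjamini-Hochberg adjustment over 18965 genes and calls at an adjusted p under 0.05. The SE is the absolute log2 fold change over the square root of F. Ratios of counts were compared on the log2 scale by exact two-sided permutation over 252 splits. Levels per kb use principal transcripts of GENCODE M21. Alternatives were other size factors and filters, DESeq2 1.42.0, limma-voom (limma 3.58.1), 1 surrogate variable (sva 3.50.0) and leaving out each library.

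The genes and lists were chosen with earlier results of these data known. All 10 cone genes and 9 of the rod counterparts are named (another rod gene of the list is not reported here), other lists by their called genes, and for Pde6c the 5 genes nearest in pattern. Genes named beyond that rule (dorsal and ventral genes, Malat1, overlapping genes, chromosome 19 neighbours, and examples from lists with no call) were chosen after values were seen or as illustrations. On simulated counts with 5 against 5 libraries and 18668 genes, 49 of 50 genes with a log2 change of -1, 50 of 50 with 1, 30 of 50 with -0.5 and 39 of 50 with 0.5 were called. Every pair of libraries differed by more than sampling noise. Depth was similar across libraries, and the lowest count of a cone gene was 509 (Cnga3).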

Additional observations from a re-analysis of the deposited data

Results flagged for a closer look

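In groups of 5 libraries, 28 screens asked whether a single library lay far from the other 4 relative to the group's range. Chance flags about 1 in 20. The genes were chosen with earlier results of these data known, so the flags below are descriptions and are not weighed against that rate. In Pde6c, W5 stood at 106 CPM and W1 to W4 at 35.4 to 45.7. In the log2 ratio of Pde6c to Pde6h, which holds the same Pde6c values, W5 stood at 0.28 and W1 to W4 at -1.85 to -1.25. In Opn1mw, W2 stood at 199.96 CPM and the other wild-type libraries at 133 to 148. W2 also had the highest sum of pigment epithelium markers, 533 CPM, and W5 the lowest, 121 CPM, and the part of these markers in the values was not tested.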

How the results depend on the processing

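No paired analysis was possible because the labels carry no replicate numbers. Of the 10 cone genes, 0 were called with DESeq2's size factors, upper-quartile factors, a filter of 1 CPM in 5 libraries, DESeq2, limma-voom or 1 surrogate variable, and 1, Pde6c, with no filter on low counts (log2 fold change 0.72, edgeR adjusted p = 0.0124). Leaving out each library gave 0 to 1, the 1 being Pde6c without W5, and log2 fold changes of 0.61 to 1.12 for that gene. The direction reversed for Opn1sw without W5 (0.0198), for Arr3 without W2 (-0.00634) and without K5 (-0.0285), for Gngt2 without K1 (-0.00047) and without K2 (-0.00401), and for Cnga3 without K1 (-0.00315). These reversed values lie far inside their SE. Their ranges over the left-out libraries were -0.138 to 0.0198 for Opn1sw, -0.0285 to 0.238 for Arr3, -0.00401 to 0.115 for Gngt2 and -0.00315 to 0.171 for Cnga3. Opn1mw, Gnat2, Gnb3, Pde6h and Cngb3 kept their direction and stayed uncalled under every alternative run.

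The log2 ratio differences ranged over left-out libraries from -0.242 to 0.0249 for Opn1mw over Opn1sw (reversed without W2, 0.0249, and without K2, 0.00953), from 0.444 to 0.978 for Pde6c over Pde6h, from 0.0931 to 0.254 for Cnga3 over Cngb3 and from -0.185 to -0.0743 for Gnat2 over Gngt2. The last 3 passed an exact permutation p under 0.05 only without W5, W3 and W3, with values of 0.978, 0.254 and -0.185. Those libraries were singled out after each had been left out in turn, so these p-values do not test the group difference. The count of genes called, 385, was 704 with no filter, 702 with DESeq2 and 692 with 1 surrogate variable, and 211 to 542 when single libraries were left out (211 without K4, 240 without K5). The causes were not tested. With 5 libraries a group, changes near 0.5 on the log2 scale were often missed in simulation.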
